A study of Homo sapiens with 16 samples.

Results

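MYC and 41 genes of ribosome biogenesis were followed in MOLM-13 cells, a human acute myeloid leukaemia line, after inhibition of the histone methyltransferase EZH2, the arginine methyltransferase PRMT5, or both. The 42 genes were picked by symbol from a list of known factors, by function and not by a threshold on their measured values, and all 42 were found among the 60669 genes of the table. Each of the 42 passed the filter on low counts, which left 16555 genes to test. The libraries fall into 4 groups of 4: cells given both inhibitors (combination, taken here as 1 µM of each), the PRMT5 inhibitor at 1 µM (PRMT5i), the EZH2 inhibitor at 1 µM (EZH2i), or the solvent DMSO at 0.005%. Every culture was kept under its treatment for 4 days, and the labels name no genetic change made for the study in any group. The labels do not name the compounds, do not give the doses within the combination separately, and do not say whether replicates came from separate cultures, so p-values measure the spread between these libraries, which may be technical. A single cell line was used.

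MYC is a transcription factor that binds E-boxes together with MAX and drives many genes of growth, and making ribosomes is among the best known programmes it controls. RNA polymerase I copies the ribosomal RNA genes in the nucleolus, guide RNA-protein complexes modify and help to cleave the transcript, and separate sets of factors then build the small and the large subunit. PRMT5 places symmetric dimethyl marks on arginines of histones, splicing proteins and other RNA-binding proteins, while EZH2 places methyl marks on lysine 27 of histone H3, so both enzymes have been studied as drug targets in leukaemias.

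The libraries held 31142456 to 52885899 expected counts (RSEM's estimates of read pairs per gene). The myeloid markers CD33, FLT3, SPI1, CEBPA, HOXA9, MEIS1, LYZ and MPO were detected in every library, whereas ANPEP was at 0.0497 to 0.944 CPM (counts scaled to the size of the library). Markers of T, B and erythroid cells, epithelium and fibroblasts were at or near 0, except CD3D at 1.77 to 7.67 CPM, and CD2 was at 0 in all 16 libraries. The summed level of the 9 myeloid markers was 2110.0 to 2280.0 CPM in combination, 2480.0 to 2770.0 in PRMT5i, 1530.0 to 1730.0 in EZH2i and 1640.0 to 2280.0 CPM in DMSO libraries, and that of the 3 T cell markers was 2.83 to 4.46 CPM in combination, 1.80 to 2.06 in PRMT5i, 6.66 to 7.67 in EZH2i and 3.55 to 5.52 CPM in DMSO libraries. These levels moved with the treatments, and their part in the results was not tested. The mRNA of EZH2 averaged 35.0 ± 0.943 CPM in combination, 24.8 ± 1.36 in PRMT5i, 48.3 ± 0.464 in EZH2i and 37.6 ± 10.7 in DMSO libraries (SD, n = 4 each), and that of PRMT5 averaged 115 to 124 CPM in the 4 groups; inhibitors of enzyme activity need not change either mRNA. One library stood apart: DMSO replicate 1 had a mitochondrial share of 1.70%, against 0.213% to 0.792% in the other libraries, and a TMM scaling factor of 0.861, against 0.959 to 1.07. Among the DMSO libraries it was the lowest for 21 of the 42 genes and the highest for 16. Values without DMSO replicate 1 stand beside many of the results that it moved, though not beside all. Leaving out DMSO replicate 2 moved the count of calls for EZH2i against DMSO further, as given there.

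The E-box CACGTG, the hexamer that MYC and MAX bind, is shown first because it was found in more of the promoters of these genes than of genes at large. As MYC heads the list, the choice of genes is not independent of it. RefSeq promoter windows (250 bases before to 50 after the start site, GRCh38.p14) were at hand for 34 of the 42 genes, and CACGTG, which reads the same on both strands, occurred in 14 of them (41.2%). It occurred in 2548 of all 35116 windows in the table (7.26%) and in 1373 of the 14690 windows of genes tested here (9.35%). By response to the PRMT5 inhibitor, described next, the hexamer was present in 5 of the 11 windows of genes that fell, in both windows of genes that rose, and in 7 of the 21 windows of genes that did not pass the threshold. A match describes these letters only and is no evidence of binding. The 7 matching windows of genes that changed are printed 5′ to 3′ on the gene's strand, trimmed to 100 bases before and 50 after the start, with the E-box in capitals and its first base counted from the start site as +1.
GAR1 (higher with PRMT5i, chr4:109815662-109815811, plus strand, E-box at 32): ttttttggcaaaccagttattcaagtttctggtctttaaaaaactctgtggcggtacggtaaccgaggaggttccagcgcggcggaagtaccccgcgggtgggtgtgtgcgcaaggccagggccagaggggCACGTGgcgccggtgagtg
NOP2 (higher, chr12:6568242-6568391, minus strand, E-box at 36): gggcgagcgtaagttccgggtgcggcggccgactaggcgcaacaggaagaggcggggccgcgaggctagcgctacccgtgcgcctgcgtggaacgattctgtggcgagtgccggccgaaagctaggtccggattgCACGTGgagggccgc
GNL3 (lower, chr3:52685932-52686081, plus strand, E-box at 7): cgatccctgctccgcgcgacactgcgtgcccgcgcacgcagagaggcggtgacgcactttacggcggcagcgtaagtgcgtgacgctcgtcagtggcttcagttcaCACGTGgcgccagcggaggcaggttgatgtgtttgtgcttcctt
LYAR (lower, chr4:4289972-4290121, minus strand, E-box at -64): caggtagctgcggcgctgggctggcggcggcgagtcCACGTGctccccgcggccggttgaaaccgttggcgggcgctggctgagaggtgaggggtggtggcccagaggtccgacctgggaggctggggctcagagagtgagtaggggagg
RRP9 (lower, chr3:51941855-51942004, minus strand, E-box at -5): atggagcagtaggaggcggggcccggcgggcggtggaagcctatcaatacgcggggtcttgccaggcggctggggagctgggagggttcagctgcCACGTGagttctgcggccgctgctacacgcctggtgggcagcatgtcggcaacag
WDR43 (lower, chr2:28894567-28894716, plus strand, E-box at 4): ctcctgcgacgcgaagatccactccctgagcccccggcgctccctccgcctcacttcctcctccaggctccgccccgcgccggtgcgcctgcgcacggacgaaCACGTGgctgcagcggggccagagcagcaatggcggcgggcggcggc
MRTO4 (lower, chr1:19251705-19251854, plus strand, E-box at 15): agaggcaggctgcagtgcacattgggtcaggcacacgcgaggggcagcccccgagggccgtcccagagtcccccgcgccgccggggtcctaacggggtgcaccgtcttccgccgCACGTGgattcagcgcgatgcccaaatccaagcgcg
In all 7 the hexamer lay within 64 bases of the start, and in 5 of them it began after it.

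In DMSO cells the 42 genes were abundantly expressed. Per kilobase of exon their median level was 28.4 CPM, against 2.85 CPM over the 16437 tested genes with a known exon length. NPM1, a nucleolar chaperone that is often mutated in this leukaemia, was the highest at 574 CPM per kilobase, followed by MYC at 184 and NCL at 122.5 CPM per kilobase. GAR1, a core protein of the complexes that guide pseudouridylation, was the lowest at 5.10 CPM per kilobase, next to the helicase DDX10 at 7.62.

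**Figure D1:**
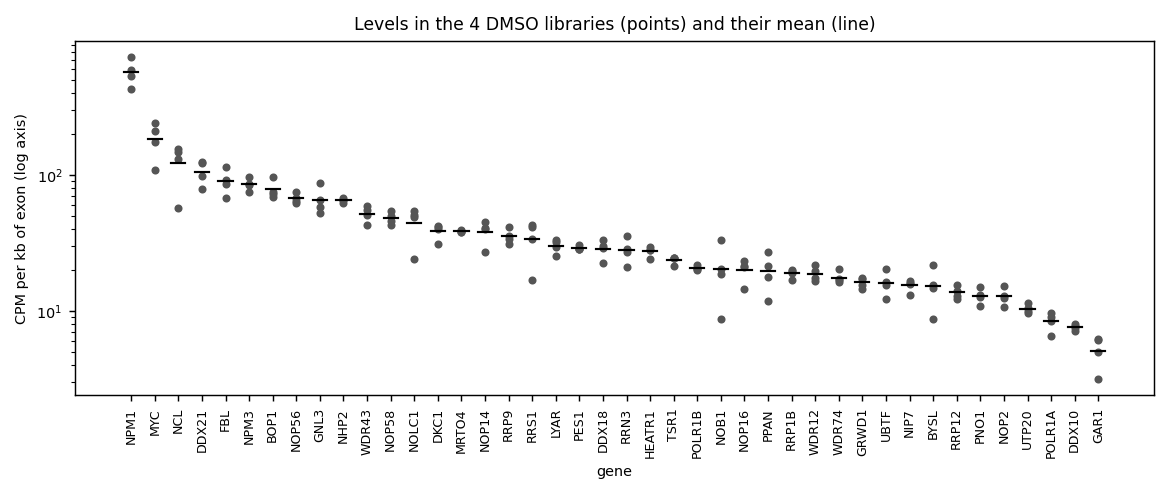
Levels of the 42 genes in the DMSO libraries, in CPM per kilobase of exon on a log axis, ordered by mean; points are the 4 libraries and bars their mean. The levels run between 5.10 for GAR1 and 574 for NPM1.

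The PRMT5 inhibitor lowered part of the set and raised a small part of it. Of the 42 genes, 13 fell and 2 rose in PRMT5i against DMSO (edgeR's quasi-likelihood test, Benjamini-Hochberg adjusted p under 0.05 over all genes tested), which is 31.0% lower and 4.76% higher. Over all genes tested the shares were 18.3% lower and 17.1% higher, 35.3% in all, so the total called, 35.7% of the 42, was near the background while the split between directions was not even. The median log2 fold change of the 42 genes was −0.13, with 30 of them below 0, against 0.00 over all genes. Changes were modest: the fitted log2 fold changes spanned −0.85 for NPM3 to 0.68 for NOP2. As bulk RNA was measured, fewer cells of a type and less RNA per cell cannot be told apart. Without DMSO replicate 1 the counts were 16 lower and 2 higher, and without DMSO replicate 2 they were 12 lower and 5 higher. Over all genes tested, 5769 of 16831 and 6853 of 16880 were then called, against 5847 of 16555 in the main fit.

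**Figure D2:**
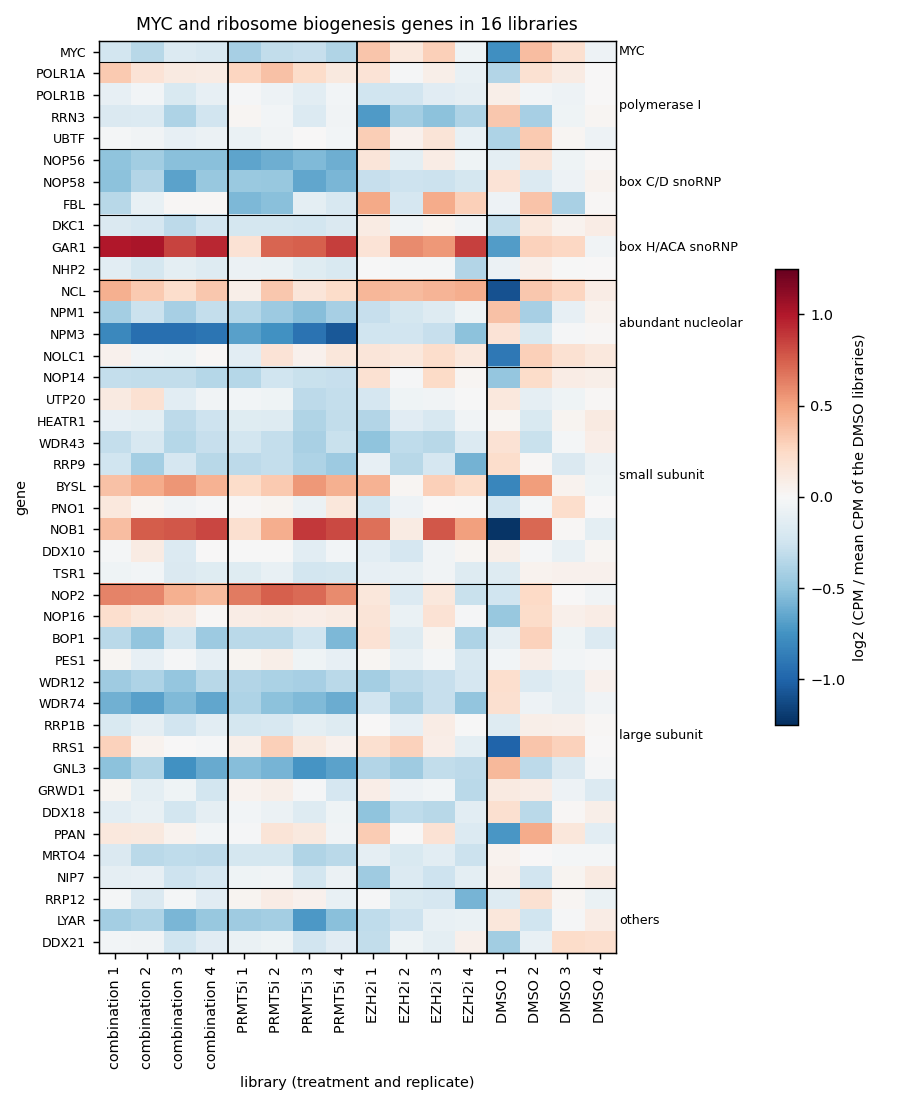
Log2 ratio of each gene's CPM to the mean of the DMSO libraries, for 42 genes (down the page, grouped by role) in 16 libraries (across, by treatment and replicate). The combination and PRMT5i columns share blue rows such as NPM3, NOP56 and GNL3 and red rows such as NOP2 and GAR1, while DMSO replicate 1 differs from the other DMSO columns in many rows.

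MYC itself (chr8:127735434-127741434, GRCh38) did not pass the threshold in any of the 6 comparisons. It measured 472, 435, 491 and 481 CPM in combination, 415, 448, 453 and 426 in PRMT5i, 704, 607, 678 and 533 in EZH2i, and 325, 724, 637 and 528 CPM in DMSO libraries. The DMSO libraries were widely spread, with replicate 1 below every other library of the series and the remaining 3 above all combination and PRMT5i libraries. MYC had a log2 fold change of −0.35 ± 0.17 in PRMT5i against DMSO (SE, adjusted p = 0.125), which became −0.54 without DMSO replicate 1 (adjusted p = 0.000402) and −0.19 without DMSO replicate 2 (adjusted p = 0.359). For combination against DMSO it was −0.24 ± 0.17 (adjusted p = 0.294), then −0.44 without DMSO replicate 1 (adjusted p = 0.00247) and −0.08 without DMSO replicate 2 (adjusted p = 0.707). For EZH2i against DMSO it was 0.19 ± 0.17 (adjusted p = 0.494), with 0.01 left without DMSO replicate 1 (adjusted p = 0.971) and 0.34 without DMSO replicate 2 (adjusted p = 0.119). All combination libraries lay below all EZH2i libraries, with a log2 fold change of −0.43 ± 0.17 (adjusted p = 0.0726; 0.00512 when the 2 groups were fitted alone). Whether what sets DMSO replicate 1 apart bears on these values was not tested.

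**Figure D3:**
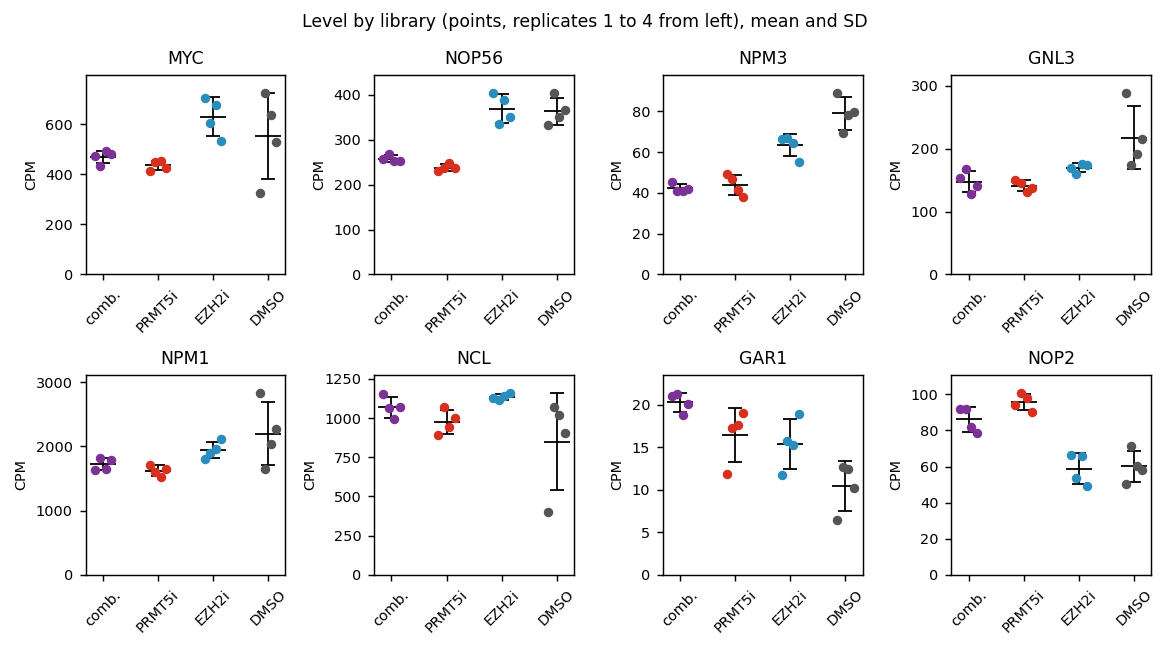
CPM of 8 genes by library: points are replicates 1 to 4 from left in each group, with the mean and SD in black, and each axis starts at 0. For NOP56, NPM3 and GNL3 every combination and PRMT5i point lies below every DMSO point, for NOP2 every one lies above, and for MYC and NCL DMSO replicate 1 lies below all other points.

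Among the 4 genes of RNA polymerase I transcription, none passed the threshold with the PRMT5 inhibitor, against 35.3% of all genes tested. POLR1A, the largest subunit of the enzyme, measured 143, 129, 123 and 122 CPM in combination, 138, 147, 134 and 124 in PRMT5i, 128, 113, 119.5 and 107 in EZH2i, and 88.3, 130.5, 122 and 115 CPM in DMSO libraries. PRMT5i replicates 1, 2 and 3 were above all DMSO libraries, and the log2 fold change of 0.25 ± 0.11 missed the threshold (SE, adjusted p = 0.0764). It was 0.13 without DMSO replicate 1 (adjusted p = 0.227) and 0.32 without DMSO replicate 2 (adjusted p = 0.0227). UBTF, which opens and bends the ribosomal DNA promoter, measured 110.1, 108, 105 and 107 CPM in combination, 106, 109, 113 and 109 in PRMT5i, 139, 116, 126 and 105 in EZH2i, and 85.9, 141, 114 and 108 CPM in DMSO libraries. Its groups overlapped, with a log2 fold change of −0.04 ± 0.12 in PRMT5i against DMSO (adjusted p = 0.83), −0.16 without DMSO replicate 1 and 0.09 without DMSO replicate 2. The second subunit gene, POLR1B, and RRN3, the factor that makes the polymerase competent to start, had log2 fold changes of −0.06 and −0.05 in that comparison (adjusted p = 0.495 and 0.765).

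Of the 3 proteins of the box C/D complexes, which guide ribose methylation of ribosomal RNA, NOP56 and NOP58 fell with the PRMT5 inhibitor. NOP56 measured 256, 269, 253 and 253 CPM in combination, 230.2, 238, 247 and 237 in PRMT5i, 405, 334, 388 and 350.4 in EZH2i, and 333, 404, 349.7 and 366 CPM in DMSO libraries. Every library that had received the PRMT5 inhibitor was below every library that had not. Its log2 fold change was −0.61 ± 0.08 in PRMT5i against DMSO (SE, adjusted p = 1.34e-05), −0.50 ± 0.08 in combination against DMSO (adjusted p = 0.000123) and −0.52 ± 0.08 in combination against EZH2i (adjusted p = 0.000105). NOP58, its partner in the complex, averaged 112 ± 9.67 CPM in combination, 109.7 ± 6.63 in PRMT5i, 133 ± 2.45 in EZH2i and 159 ± 16 CPM in DMSO libraries (SD, n = 4 each), a log2 fold change of −0.54 in PRMT5i against DMSO (adjusted p = 8.01e-05). FBL, the methyltransferase of the complex, was more variable, with 154, 183, 198 and 198 CPM in combination, 132, 136, 179.8 and 170.3 in PRMT5i, 272, 169, 271 and 241 in EZH2i, and 187, 250.2, 148 and 198 CPM in DMSO libraries. Its groups overlapped, and the log2 fold change of −0.34 ± 0.17 in PRMT5i against DMSO did not pass (adjusted p = 0.124). In all, 3 pseudogenes carry the name of NOP56 in the annotation, so reads of near-identical copies make its counts less certain.

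In the box H/ACA complexes, which guide pseudouridylation, the genes did not move together. GAR1 rose with the PRMT5 inhibitor: it measured 20.9, 21.2, 18.8 and 20.03 CPM in combination, 11.8, 17.3, 17.6 and 19 in PRMT5i, 11.7, 15.7, 15.2 and 18.9 in EZH2i, and 6.43, 12.7, 12.5 and 10.1 CPM in DMSO libraries. All combination libraries were above all DMSO libraries, whereas PRMT5i replicate 1 lay within the DMSO range. GAR1 had a log2 fold change of 0.65 ± 0.19 in PRMT5i against DMSO (SE, adjusted p = 0.0137, or 0.0507 when the 2 groups were fitted alone). Without DMSO replicate 1 it was 0.47 (adjusted p = 0.0349). In combination against DMSO it was 0.96 ± 0.19 (adjusted p = 0.000978), and 0.77 without DMSO replicate 1 (adjusted p = 0.00172). GAR1 also leaned upward in EZH2i against DMSO, at 0.56 ± 0.19 (adjusted p = 0.0822 with edgeR and 0.0379 with DESeq2). That value was 0.40 without DMSO replicate 1 (adjusted p = 0.179) and 0.66 without DMSO replicate 2 (adjusted p = 0.023). Combination against EZH2i did not pass, at 0.40 ± 0.19 (adjusted p = 0.134). DKC1, the pseudouridine synthase, averaged 138 ± 5.88 CPM in combination, 141 ± 2.19 in PRMT5i, 164 ± 7.97 in EZH2i and 163 ± 21.4 CPM in DMSO libraries (SD, n = 4 each). Its log2 fold change of −0.21 in PRMT5i against DMSO missed the threshold (adjusted p = 0.0573) and was −0.32 without DMSO replicate 1 (adjusted p = 0.000524). NHP2, the third core protein studied, measured 89.3, 84.3, 90.2 and 87.7 CPM in combination, 93.1, 92.3, 88.3 and 85.8 in PRMT5i, 97.9, 96.5, 96.2 and 76.1 in EZH2i, and 93.4, 102, 98 and 98.4 CPM in DMSO libraries. The PRMT5i and DMSO libraries of NHP2 did not overlap, yet the log2 fold change of −0.13 ± 0.08 was small and did not pass (adjusted p = 0.232); 27.4% of its exon bases overlap RMND5B on the opposite strand.

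Among the abundant nucleolar proteins, NPM3 had the largest fall of the 42 genes. NPM3, a relative of NPM1, measured 45.2, 41, 41.1 and 42 CPM in combination, 49.2, 46.8, 41.6 and 38 in PRMT5i, 66.4, 67, 64.6 and 55.3 in EZH2i, and 89.1, 69.2, 78.1 and 79.5 CPM in DMSO libraries. Every EZH2i library lay between the DMSO libraries above and the PRMT5i and combination libraries below. NPM3 had a log2 fold change of −0.85 ± 0.10 in PRMT5i against DMSO (SE, adjusted p = 5.26e-06), −0.90 ± 0.10 in combination against DMSO (adjusted p = 3.98e-06) and −0.32 ± 0.10 in EZH2i against DMSO, where it did not pass (adjusted p = 0.0593). NPM1 measured 1634, 1824, 1645 and 1785 CPM in combination, 1716, 1603, 1518 and 1645 in PRMT5i, 1802, 1893, 1965 and 2111 in EZH2i, and 2829, 1651, 2043 and 2269.9 CPM in DMSO libraries. With the PRMT5 inhibitor NPM1 fell, although 1 PRMT5i library exceeded DMSO replicate 2. Its log2 fold change was −0.44 ± 0.12 (SE, adjusted p = 0.00937, or 0.0509 when the 2 groups were fitted alone). Without DMSO replicate 1 it was −0.31 (adjusted p = 0.0238). The annotation holds 45 pseudogenes named for NPM1, so its counts are uncertain in that respect. NCL, nucleolin, measured 1155, 1063, 991 and 1070.1 CPM in combination, 892, 1074, 945 and 998 in PRMT5i, 1130.5, 1115, 1141 and 1159.9 in EZH2i, and 399, 1071, 1022 and 903 CPM in DMSO libraries, and passed in no comparison; its log2 fold change of 0.20 in PRMT5i against DMSO turned to −0.04 without DMSO replicate 1. NOLC1, a chaperone that escorts small nucleolar complexes, measured 184, 171, 169.7 and 178 CPM in combination, 162, 198, 183 and 195 in PRMT5i, 196, 193, 205 and 194 in EZH2i, and 95.2, 216, 201 and 193 CPM in DMSO libraries. For both NCL and NOLC1, DMSO replicate 1 was below every other library. The log2 fold change of NOLC1 was 0.06 ± 0.17 in PRMT5i against DMSO (adjusted p = 0.805) and −0.01 in combination against DMSO (adjusted p = 0.98). Without DMSO replicate 1 the first turned to −0.15 (adjusted p = 0.107) and the second was −0.23 (adjusted p = 0.0202).

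Of the 10 factors of small-subunit assembly, 3 fell with the PRMT5 inhibitor and none rose (30.0% lower). Over all genes tested 18.3% were lower and 17.1% higher, 35.3% in all. RRP9, a component of the U3 complex that directs early cleavages, measured 47, 41.8, 48.4 and 44 CPM in combination, 44.5, 45.5, 42.7 and 40.9 in PRMT5i, 52, 44.1, 48.6 and 37.2 in EZH2i, and 65.1, 56.5, 49.3 and 53.1 CPM in DMSO libraries. No PRMT5i library reached the lowest DMSO library, and the log2 fold change was −0.37 ± 0.11 (SE, adjusted p = 0.0127). WDR43 and HEATR1, subunits of the complex that links transcription of ribosomal RNA to its processing, fell, with log2 fold changes of −0.30 and −0.25 (SE 0.09 each, adjusted p = 0.0205 and 0.0418). These calls were fragile: that of WDR43 was lost without DMSO replicate 1 (log2 fold change −0.25) or 4 (−0.27) or PRMT5i replicate 3 (−0.27). The call of HEATR1 was lost without DMSO replicate 1 (−0.25), 3 (−0.24) or 4 (−0.21) or PRMT5i replicate 3 (−0.21) or 4 (−0.23), and 23.2% of its exon bases overlap LGALS8 on the opposite strand. PNO1, which helps late maturation of 18S ribosomal RNA, measured 38, 35.2, 33.6 and 34.3 CPM in combination, 34.9, 35.4, 32.8 and 38.1 in PRMT5i, 29.4, 33, 34.6 and 34.5 in EZH2i, and 29.3, 34, 40.4 and 34.7 CPM in DMSO libraries. Its groups overlapped throughout, with a log2 fold change of 0.03 ± 0.10 (adjusted p = 0.853).

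NOB1, the endonuclease that makes the last cut of 18S ribosomal RNA, had the largest SE of the small-subunit factors. It measured 55.8, 72.1, 73.4 and 76 CPM in combination, 49.1, 58.7, 78.9 and 75.7 in PRMT5i, 69, 45.8, 73.1 and 61 in EZH2i, and 18.3, 70.1, 43.2 and 39.4 CPM in DMSO libraries. The log2 fold change of 0.62 ± 0.28 in PRMT5i against DMSO missed the threshold (SE, adjusted p = 0.0961). It was 0.36 without DMSO replicate 1, the lowest DMSO library (adjusted p = 0.201), and 0.96 without DMSO replicate 2, the highest (adjusted p = 0.00526). BYSL, an assembly factor that leaves the particle late, behaved alike in that DMSO replicate 1 was its lowest library, at 19.4 CPM, and DMSO replicate 2 its highest DMSO library, at 49.1 CPM. Its log2 fold change was 0.39 ± 0.19 (adjusted p = 0.112), with 0.19 without DMSO replicate 1 (adjusted p = 0.255) and 0.62 without DMSO replicate 2 (adjusted p = 0.00526). NOP14 and TSR1, both assembly factors, had log2 fold changes of −0.29 and −0.17 (adjusted p = 0.0533 and 0.0607). Without DMSO replicate 1 these were −0.44 and −0.23 (adjusted p = 7.92e-05 and 0.00873). UTP20, a scaffold of the early particle, and the helicase DDX10 had log2 fold changes of −0.17 and −0.04 and did not pass (adjusted p = 0.164 and 0.707).

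Of the 14 factors of large-subunit assembly, 5 fell and 1 rose with the PRMT5 inhibitor (35.7% and 7.14%). Over all genes tested 18.3% were lower and 17.1% higher. NOP2, which methylates a cytosine of 28S ribosomal RNA, rose: it measured 92, 91.8, 81.8 and 78.7 CPM in combination, 94.2, 101, 98.2 and 90.5 in PRMT5i, 66.4, 53.4, 65.6 and 49.4 in EZH2i, and 50.4, 71.1, 60.3 and 58.3 CPM in DMSO libraries. All libraries with the PRMT5 inhibitor were above all libraries without it. NOP2 had a log2 fold change of 0.68 ± 0.11 in PRMT5i against DMSO (SE, adjusted p = 0.000171), 0.52 ± 0.11 in combination against DMSO (adjusted p = 0.00174) and 0.55 ± 0.11 in combination against EZH2i (adjusted p = 0.00145). The annotation places AC006064.6, a gene on the same strand, over 54.4% of the exon bases of NOP2, so the values of NOP2 are uncertain in that respect. GNL3, nucleostemin, a nucleolar GTP-binding protein, fell: it measured 153, 168, 129 and 141 CPM in combination, 151, 145, 130.4 and 137 in PRMT5i, 169, 160.4, 176 and 174 in EZH2i, and 289, 174, 192 and 216 CPM in DMSO libraries. Every combination and PRMT5i library was below every DMSO library, the closest being combination replicate 2 and DMSO replicate 2. The log2 fold change of GNL3 was −0.63 ± 0.13 in PRMT5i against DMSO (adjusted p = 0.000887), and −0.47 without DMSO replicate 1 (adjusted p = 0.0012).

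BOP1, PES1 and WDR12 form the PeBoW complex, which is needed to process the precursor of the large-subunit ribosomal RNAs, and they did not change alike with the PRMT5 inhibitor. WDR12 averaged 128 ± 5.14 CPM in combination, 132 ± 3.11 in PRMT5i, 138 ± 8.599 in EZH2i and 171 ± 21.0 CPM in DMSO libraries (SD, n = 4 each), and fell in PRMT5i against DMSO with a log2 fold change of −0.38 ± 0.08 (SE, adjusted p = 0.00156). BOP1 averaged 225 ± 18.5 CPM in combination, 225 ± 19.7 in PRMT5i, 277 ± 46.2 in EZH2i and 291 ± 44.3 CPM in DMSO libraries. It fell by 0.37 (SE 0.12, adjusted p = 0.0279), and the call was lost without DMSO replicate 2 (log2 fold change −0.26) or PRMT5i replicate 4 (−0.31). PES1 measured 134, 123, 131 and 124 CPM in combination, 136, 139, 128 and 123 in PRMT5i, 135, 124, 130.1 and 116 in EZH2i, and 129, 139.9, 129 and 131 CPM in DMSO libraries. Its log2 fold change was −0.01 ± 0.07 (adjusted p = 0.924); the differences between the 3 genes were not tested.

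WDR74, which acts with a helicase of the nuclear exosome pathway, and MRTO4, which holds the place of the ribosomal stalk during assembly, also fell. WDR74 measured 49.3, 46.6, 51.1 and 47.6 CPM in combination, 57.1, 52.4, 51 and 48.5 in PRMT5i, 63.4, 56.4, 61.3 and 53.1 in EZH2i, and 85.7, 71.6, 69 and 72.6 CPM in DMSO libraries. All 12 libraries with an inhibitor were below all DMSO libraries. The log2 fold change of WDR74 was −0.52 ± 0.09 in PRMT5i against DMSO (SE, adjusted p = 0.000191), and that of MRTO4 was −0.29 ± 0.07 (adjusted p = 0.00285), with 88.8 ± 4.51 CPM in combination, 89 ± 5.03 in PRMT5i, 96.2 ± 4.69 in EZH2i and 109 ± 2.38 CPM in DMSO libraries. The other 7 genes of this role, NOP16, RRP1B, RRS1, GRWD1, DDX18, PPAN and NIP7, had log2 fold changes between −0.17 and 0.14 and did not pass. Those of RRS1 (0.14), NOP16 (0.09) and PPAN (0.06) turned to −0.09, −0.05 and −0.13 without DMSO replicate 1. RRP1B, at −0.17 (adjusted p = 0.0642), passed without DMSO replicate 1, at −0.24 (adjusted p = 0.00692). PPAN shares 56.0% of its exon bases with its read-through gene PPAN-P2RY11 on the same strand, which itself was counted at 0 to 2.74 CPM.

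Of the remaining 3 factors, LYAR, a nucleolar zinc-finger protein, fell. It measured 52.1, 53.2, 46.9 and 50.3 CPM in combination, 51.2, 51.8, 42.5 and 48.4 in PRMT5i, 55.8, 58.1, 65.4 and 65.7 in EZH2i, and 76.9, 58.6, 68.8 and 74.5 CPM in DMSO libraries. Its PRMT5i and DMSO libraries did not overlap, with a log2 fold change of −0.52 ± 0.10 (SE, adjusted p = 0.000465). RRP12, which takes part in export of the subunits, measured 115, 103, 115 and 106 CPM in combination, 119.9, 125, 121 and 109 in PRMT5i, 115, 102, 101 and 77.9 in EZH2i, and 105, 133, 119 and 111 CPM in DMSO libraries, a log2 fold change of 0.02 ± 0.10 in PRMT5i against DMSO (adjusted p = 0.879). DDX21, a helicase that senses the state of both RNA polymerase I and II transcription, averaged 489.7 ± 33.5 CPM in combination, 486 ± 27.1 in PRMT5i, 496 ± 52.7 in EZH2i and 531 ± 108 CPM in DMSO libraries (SD, n = 4 each) and did not pass in any comparison.

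**Figure D4:**
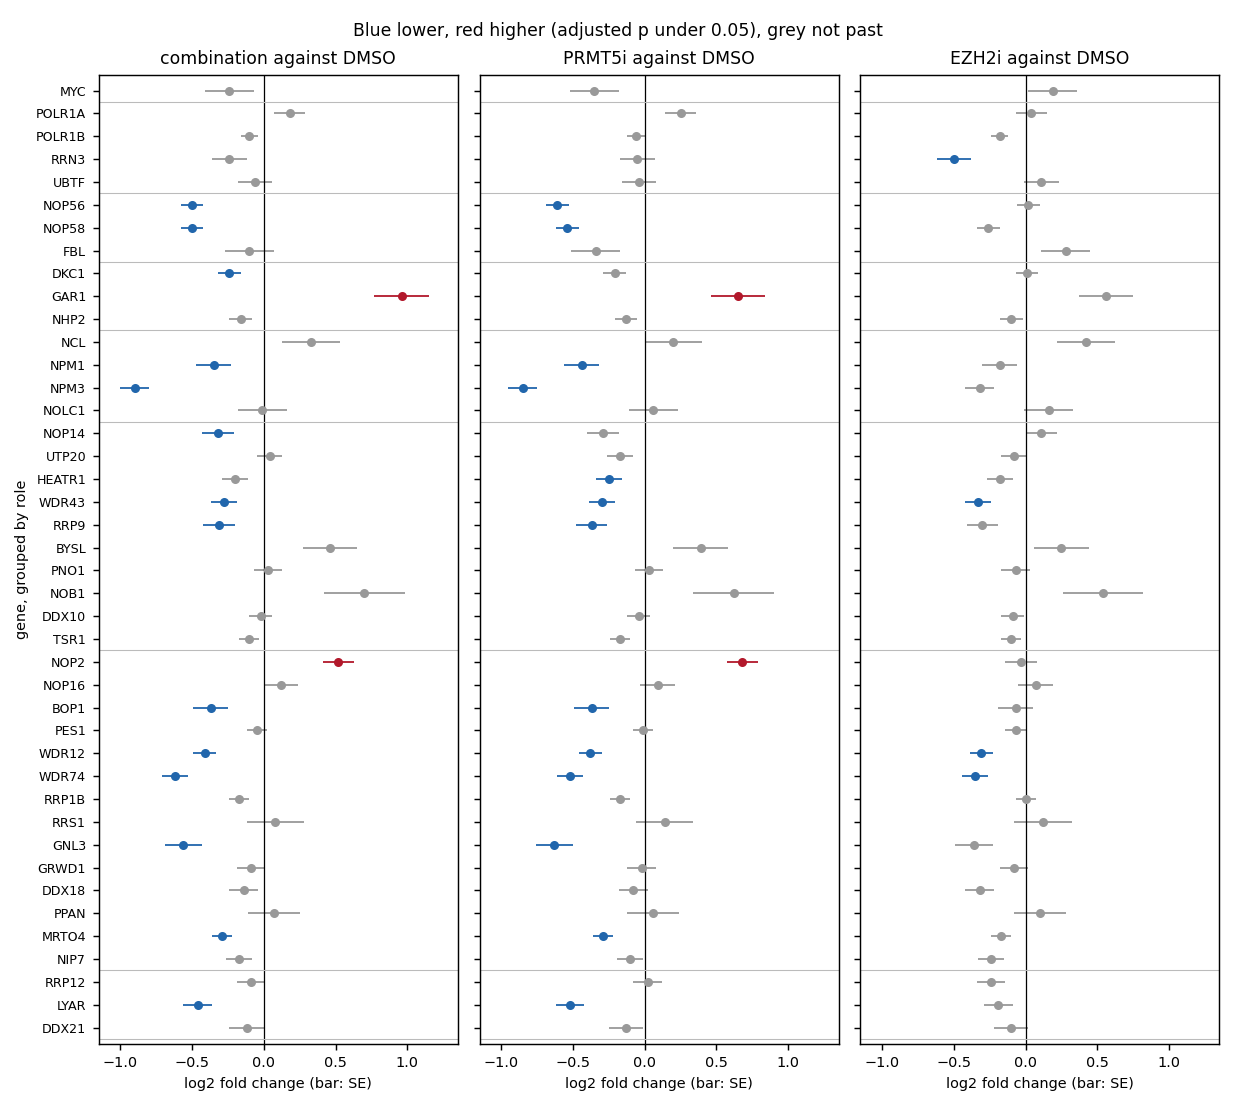
Fitted log2 fold changes of the 42 genes, with SE as bars, for combination, PRMT5i and EZH2i, each against the same DMSO libraries; blue is lower and red higher at an adjusted p under 0.05, and grey did not pass. Blue points number 14, 13 and 4 in the 3 panels, and red points 2, 2 and 0.

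The EZH2 inhibitor alone moved fewer of these genes. Of the 42, 4 fell and none rose in EZH2i against DMSO (9.52% lower), against 3.49% lower and 4.11% higher over all genes tested (7.60% in all), and the median log2 fold change was −0.08. RRN3 fell the most, with 71, 86.5, 81.6 and 89.3 CPM in EZH2i, against 147, 87.6, 112 and 119 CPM in DMSO libraries, a log2 fold change of −0.50 ± 0.12 (SE, adjusted p = 0.0199). EZH2i replicate 4 lay above DMSO replicate 2, so the groups overlapped. The annotation holds 2 pseudogenes named for RRN3, so its counts are uncertain in that respect. WDR74 fell by 0.35 (SE 0.09, adjusted p = 0.0219), WDR43 by 0.33 (SE 0.09, adjusted p = 0.0427) and WDR12 by 0.31 (SE 0.08, adjusted p = 0.0285) on the log2 scale. None of the 4 calls stood in every alternative. That of RRN3 was lost when DMSO replicate 1, DMSO replicate 4 or EZH2i replicate 1 was left out, with log2 fold changes of −0.62 to −0.36 over the libraries left out in turn. That of WDR74 was lost when DMSO replicate 4, EZH2i replicate 2 or EZH2i replicate 4 was left out (−0.39 to −0.27). That of WDR12 was lost when DMSO replicate 1 or 4, or EZH2i replicate 1, 2 or 3, was left out (−0.37 to −0.23), and that of WDR43 without any 1 of the same libraries or DMSO replicate 3 (−0.42 to −0.26). The count depended on single control libraries, and the count over all genes tested moved as well, from 1259 of 16555 in the main fit. Dropping DMSO replicate 4 gave 0 (499 of all 16828 genes). Dropping DMSO replicate 1 gave 1, WDR74 (875 of 16831), and dropping DMSO replicate 2 gave 15, of which 12 lower (4591 of 16880). Dropping EZH2i replicate 1 or 2 gave 1 (758 of 16858 and 728 of 16805), and dropping EZH2i replicate 3 gave 2 (844 of 16870). DESeq2 on all libraries called 11, of which 10 lower (2149 of 16555). NPM3, NOP58, POLR1B and MRTO4 were lower in every EZH2i than in every DMSO library and missed the threshold in the edgeR test (adjusted p = 0.0593, 0.065, 0.0865 and 0.112). NCL was higher in every EZH2i library and missed it too (log2 fold change 0.42, adjusted p = 0.187), with 0.20 left without DMSO replicate 1 (adjusted p = 0.161). The share of all genes tested whose EZH2i and DMSO libraries separated fully was not counted, so these separations have no background.

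With both inhibitors, 14 of the 42 genes fell and 2 rose against DMSO, 33.3% lower and 4.76% higher, against 18.5% lower and 17.6% higher over all genes tested (36.2% in all). The median log2 fold change was −0.13. The 5 largest falls were those of NPM3 (−0.90), WDR74 (−0.62), GNL3 (−0.56), NOP56 and NOP58 (−0.50 each), and the 2 that rose were GAR1 (0.96) and NOP2 (0.52). WDR74 in this comparison had an adjusted p of 4.04e-05 and GNL3 of 0.00235. The remaining falls were those of LYAR (−0.46), WDR12 (−0.41), BOP1 (−0.37), NPM1 (−0.35), NOP14 (−0.32), RRP9 (−0.31), MRTO4 (−0.29), WDR43 (−0.28) and DKC1 (−0.24). Leaving out single libraries ended the calls of 6 of them. Those were DKC1 (log2 fold changes −0.35 to −0.19 over the libraries left out in turn, kept only without DMSO replicate 1 or combination replicate 1), NOP14 (−0.46 to −0.24, kept only without DMSO replicate 1) and NPM1 (−0.47 to −0.23, lost without DMSO replicate 1 or 4 or combination replicate 1, 3 or 4). The others were WDR43 (−0.37 to −0.24, lost without those same libraries as NPM1), RRP9 (−0.36 to −0.24, lost without DMSO replicate 1 or combination replicate 1, 2 or 4) and BOP1 (−0.43 to −0.26, lost without DMSO replicate 2 or combination replicate 2 or 4). Without combination replicate 4 the count was 10, of which 8 lower (5130 of all 16855 genes tested, against 5990 of 16555 in the main fit). Scaling by total counts in place of TMM gave 7 lower and 2 higher, with a median of 0.00 over the 42 genes and of 0.13 over all genes. Of all 16555 genes tested, 5918 were called with that scaling. The 3 comparisons with DMSO share the same control libraries, so DMSO replicate 1 enters all of them.

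Adding the EZH2 inhibitor to the PRMT5 inhibitor changed none of the 42 genes beyond the threshold. In combination against PRMT5i, edgeR and DESeq2 each called 0 of 42, against 4.16% of all genes tested by edgeR (2.91% higher and 1.24% lower). At an unadjusted p under 0.05 in edgeR there were 1 of the 42 and 2632 of all 16555 genes. The log2 fold changes spanned −0.19 for RRN3 to 0.30 for GAR1, with a median of 0.00. The interaction term asks whether the effect of the EZH2 inhibitor differed with and without the PRMT5 inhibitor. It called 0 of 42 with edgeR and 0 with DESeq2, against 0.290% of all genes tested by edgeR (0.254% higher and 0.0362% lower). At an unadjusted p under 0.05 in edgeR this term had 6 of the 42 and 1489 of all 16555 genes. Its estimates ran between −0.46 for NOB1 (SE 0.39) and 0.43 for GNL3 (SE 0.18, adjusted p = 0.5). A p that misses the threshold does not show that the responses were alike.

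Adding the PRMT5 inhibitor to the EZH2 inhibitor lowered 7 of the 42 genes and raised 1, 16.7% lower and 2.38% higher, against 14.6% lower and 13.4% higher over all genes tested (28.0% in all). The median log2 fold change was −0.02. NPM3 fell by 0.58 (SE 0.10, adjusted p = 0.000332), NOP56 by 0.52 and NOP14 by 0.43 (SE 0.11, adjusted p = 0.00897) on the log2 scale, and NOP2 rose by 0.55. NOP14 measured 110.2, 109.8, 109 and 106 CPM in combination, against 155, 134, 159 and 137 CPM in EZH2i libraries, without overlap. LYAR, WDR74, DKC1 and NOP58 fell by 0.24 to 0.27 (adjusted p = 0.03 to 0.0444), and the calls of these 4 depended on single libraries. Leaving out any 1 library ended that of NOP58 except combination replicate 2 (−0.29 to −0.19), that of LYAR except EZH2i replicate 1 (−0.32 to −0.24), that of DKC1 except EZH2i replicate 2 or 4 (−0.27 to −0.22), and that of WDR74 except EZH2i replicate 2 or 4 or combination replicate 3 (−0.31 to −0.23). The count was 4 or 5 without EZH2i replicate 1 or 3 or any 1 combination library. In those fits 3714 to 3936 of all genes tested were called, against 4633 in the main fit. Over all 6 comparisons, 18 of the 42 genes passed in at least 1 and 24 in none. The matching share of all genes tested was not counted, so these numbers have no background. In PRMT5i and in combination against DMSO alone, 35.3% and 36.2% of all genes passed.

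Other genes of the same processes, taken from lists drawn up by function and holding none of the 42, were read in the same fit. With the PRMT5 inhibitor, 57 of the 163 tested fell and 13 rose (35.0% and 7.98%, against 18.3% and 17.1% over all genes tested), with a median log2 fold change of −0.17. Among 44 further small-subunit factors 13 fell and 6 rose (median −0.15), among 47 further large-subunit factors 17 fell and none rose (−0.16), and among 12 further genes of RNA polymerase I 2 fell and 1 rose (−0.20). RRP7A, a small-subunit factor, averaged 68.5 ± 4.04 CPM in combination, 68.7 ± 4.38 in PRMT5i, 122 ± 14.2 in EZH2i and 151 ± 11.2 CPM in DMSO libraries (SD, n = 4 each), a log2 fold change of −1.14 in PRMT5i against DMSO (adjusted p = 7.46e-08). EMG1, a methyltransferase of 18S ribosomal RNA, fell by 0.71, while PDCD11 and UTP14A, processing factors of the same subunit, rose by 0.38 and 0.35 on the log2 scale. TEX10 and EBNA1BP2, large-subunit factors, fell by 0.80 and 0.50, and POLR1E and ZNRD1, subunits of RNA polymerase I, by 0.55 and 0.53, whereas TAF1D, a part of the promoter selectivity factor, rose by 0.42.

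Of 11 assembly factors of small nucleolar complexes, 3 rose and 3 fell (27.3% each, median −0.16), on a background of 17.1% higher and 18.3% lower over all genes tested. NAF1, which GAR1 replaces in the maturing H/ACA complex, averaged 7.15 ± 0.694 CPM in combination, 6.57 ± 0.947 in PRMT5i, 6.38 ± 1.19 in EZH2i and 3.75 ± 1.30 CPM in DMSO libraries (SD, n = 4 each). Its log2 fold change was 0.81 in PRMT5i against DMSO (adjusted p = 0.006) and 0.77 in EZH2i against DMSO (adjusted p = 0.0344). In combination against EZH2i it was 0.16 (adjusted p = 0.597). SHQ1, a chaperone of DKC1, rose by 0.50 (adjusted p = 0.00206), while PIH1D1 and RUVBL2, parts of a chaperone machine for box C/D proteins, fell by 0.79 and 0.52 on the log2 scale. Of 15 genes of the nuclear exosome, which trims ribosomal RNA, 7 fell and none rose (46.7% lower, median −0.31), on that same background. EXOSC8, a subunit of its ring, averaged 55.1 ± 2.65 CPM in combination, 45.7 ± 4.11 in PRMT5i, 94.1 ± 9.20 in EZH2i and 123 ± 24.5 CPM in DMSO libraries, a log2 fold change of −1.43 (adjusted p = 1.46e-07), and EXOSC2 fell by 0.58.

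Of 11 tested partners and relatives of MYC, 3 rose and 3 fell with the PRMT5 inhibitor (27.3% each, median 0.04), on the same background. MXD4, which competes with MYC for MAX, averaged 31.1 ± 4.22 CPM in combination, 39.7 ± 4.31 in PRMT5i, 20.2 ± 2.997 in EZH2i and 18.3 ± 3.44 CPM in DMSO libraries (SD, n = 4 each), a log2 fold change of 1.11 in PRMT5i against DMSO (adjusted p = 1.35e-05). MXD3, of the same family, fell by 0.78 (adjusted p = 0.00182), MYCL, a MYC paralogue, fell by 0.54 (adjusted p = 0.00108), and MLXIP, a partner of MLX, rose by 0.60 (adjusted p = 0.00938). Of 23 targets commonly ascribed to MYC outside the ribosome, 12 fell and none rose (52.2% lower, median −0.37). Over all genes tested 18.3% were lower and 17.1% higher. SHMT2, a mitochondrial enzyme of serine metabolism, averaged 173 ± 26.0 CPM in combination, 161 ± 8.22 in PRMT5i, 330.3 ± 37.1 in EZH2i and 374 ± 39.3 CPM in DMSO libraries, a log2 fold change of −1.22 (adjusted p = 4e-07). IMPDH2, which limits the making of guanine nucleotides, fell by 0.74 (adjusted p = 1.07e-06). With the EZH2 inhibitor 10 of the 163 genes fell and 1 rose (6.13% and 0.613%, against 3.49% and 4.11% over all genes tested). That count of 11 ran between 1, without DMSO replicate 4, and 73, without DMSO replicate 2. Those 2 fits called 499 of 16828 and 4591 of 16880 genes over all tested. With both inhibitors 55 fell and 12 rose against DMSO (33.7% and 7.36%, against 18.5% and 17.6% over all genes tested). Combination against PRMT5i called 0 with edgeR, with 8 at an unadjusted p under 0.05, and 2 with DESeq2. Over all 16555 genes tested, 2632 had an unadjusted p under 0.05 in edgeR, and DESeq2 called 1064.

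**Figure D5:**
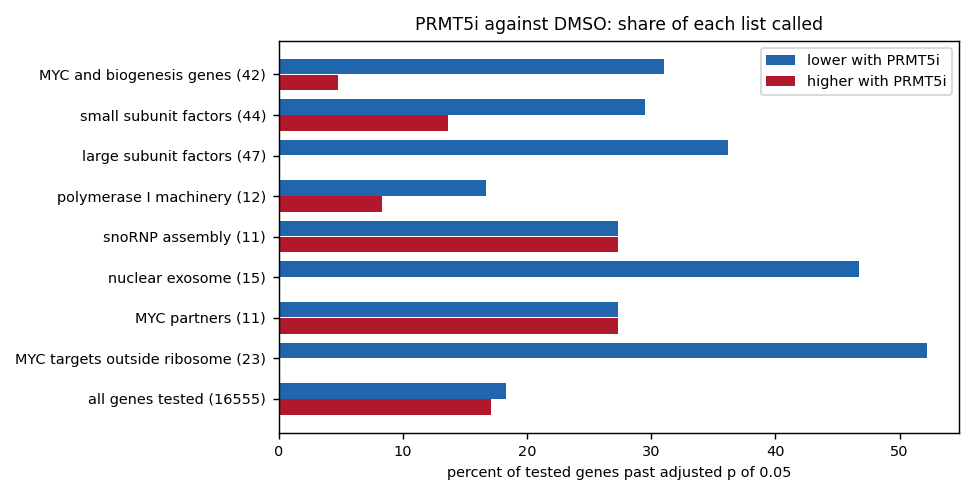
Percent of genes lower (blue) and higher (red) in PRMT5i against DMSO at an adjusted p under 0.05, for the 42 genes and 7 further lists with the number tested in brackets; the bottom pair of bars is over all 16555 genes tested, 18.3% lower and 17.1% higher. Among the 42 genes 31.0% were lower and 4.76% higher.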

How the data were processed

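Paired-end RNA sequencing of 16 libraries was deposited as 1 table of expected counts per gene; per the submitters' processing notes, the authors aligned reads to GRCh38.p7 with STAR 2.5.3 and estimated these counts with RSEM (12% of all values were not whole, within a tolerance of 1e-09). The sources used here give neither the annotation, nor the strandedness of the kit, nor the counting options, and reads of overlapping genes on opposite strands may then be mixed. Besides those of NOP56, NPM1 and RRN3, GENCODE release 29 names pseudogenes for DDX18 (5), NIP7 (3), NCL, NHP2, PES1 and DDX10 (2 each) and LYAR (1). Expected counts were rounded, and genes were kept by edgeR's filterByExpr by group. edgeR 4.0.16 was fitted with TMM scaling and 4 group means over all 16 libraries (quasi-likelihood test, two-sided, Benjamini-Hochberg adjustment over all genes tested, threshold 0.05). The SE is the size of the log2 fold change divided by the square root of F. Levels are CPM on TMM-scaled library sizes; exon lengths come from GENCODE release 29 and promoter sequences from RefSeq. No threshold on measured values picked the genes, but the genes, lists and alternatives were chosen with earlier results of these data known. Values in every library are given for MYC and, in each role, for the genes with the smallest and largest p in PRMT5i against DMSO, with others added after their values were seen; from each further list up to 2 genes per direction with the smallest p are named. Alternatives were total counts without TMM, no filter, a replicate block, a term for replicates 1 and 2 against 3 and 4, fits of the 2 groups alone, DESeq2 1.42.0, and leaving out each library. The fit was tested on simulated data. The labels do not say that a replicate number marks a shared culture, so no pairing was assumed. Correlations between the deviations of same-numbered libraries were weak, with a median of 0.024, but those between PRMT5i and combination were all positive. Every pair of libraries within a group differed beyond counting noise.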

Additional observations from a re-analysis of the deposited data

Results flagged for a closer look

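Within the 168 groups of 4 libraries (42 genes in 4 treatments), 5 held a library far from the other 3, where the gap to its nearest neighbour took up more of the whole range than Dixon's critical value for 4 samples; chance alone marks about 1 in 20 such groups. NHP2, a core protein of the H/ACA complexes, was at 76.1 CPM in EZH2i replicate 4, against 96.2 to 97.9 CPM in the other EZH2i libraries. TSR1, a small-subunit factor, was at 117.7 CPM in DMSO replicate 1, against 135 to 136.5 CPM in the other DMSO libraries. PES1, of the PeBoW complex, was at 139.9 CPM in DMSO replicate 2, against 129 to 131 CPM in the others. RRS1 and MRTO4, both large-subunit factors, were high in combination replicate 1, RRS1 at 69.9 CPM against 56.7 to 59.0 CPM in the other combination libraries and MRTO4 at 95.5 CPM against 85.9 to 87.3 CPM. None of the 5 was in a PRMT5i library.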

How the results depend on the processing

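Of the 15 genes called in PRMT5i against DMSO, 10 passed in every alternative, against 0 of 4 for EZH2i against DMSO, 9 of 16 for combination against DMSO and 4 of 8 for combination against EZH2i. Leaving out 1 library at a time gave 13 to 18 calls for PRMT5i, 0 to 15 for EZH2i and 10 to 19 for combination against DMSO. It gave 4 to 8 for combination against EZH2i, and 0 for combination against PRMT5i and for the interaction. Over all genes tested the calls ran from 4898 to 6853 for PRMT5i, 499 to 4591 for EZH2i and 5122 to 7110 for combination against DMSO. They ran from 3714 to 4915 for combination against EZH2i, 263 to 533 for combination against PRMT5i and 28 to 124 for the interaction. For EZH2i against DMSO the count was 1 with total counts, 2 without the filter, 0 with only those 2 groups fitted and 11 with DESeq2. Over all genes those settings called 1144 of 16555, 915 of 34479, 135 of 15447 and 2149 of 16555. For combination against DMSO it was 9 with total counts, which moved the median of all genes to 0.13, and for combination against EZH2i it was 4 without the filter. With total counts combination against EZH2i had 2 higher and 5 lower, in place of 1 and 7. Over all genes, combination against EZH2i called 3964 of 34479 without the filter and 4479 of 16555 with total counts. The other settings left each count of the 42 genes within 1.5 times its value. The log2 interaction of MYC was −0.08, ran between −0.24 and 0.10 without 1 library, and turned positive (0.10) without DMSO replicate 1 (adjusted p = 0.938); the cause of these shifts was not tested.

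Whether replicate numbers mark pairs was not settled. Same-numbered libraries had correlations of −0.272 to 0.236 between their deviations from the group means (24 pairs, median 0.024). Differently numbered ones had −0.358 to 0.472 (72 pairs, median −0.025), so the ranges overlapped. Same-numbered PRMT5i and combination libraries had 0.206, 0.026, 0.236 and 0.136, while same-numbered DMSO and EZH2i libraries had −0.232, −0.272, −0.007 and 0.209. PRMT5i and combination libraries correlated at 0.026 to 0.248 within replicates 1 and 2 or within 3 and 4, against −0.213 to 0.021 across them. With a replicate block the 42 genes gave 14 calls for PRMT5i, 6 for EZH2i and 15 for combination against DMSO. They gave 8 for combination against EZH2i and 0 for the other comparisons. With a term for replicates 1 and 2 against 3 and 4 these counts were 15, 5, 16, 8 and 0. Over all 16555 genes tested, the block called 5939 for PRMT5i, 1430 for EZH2i and 6130 for combination against DMSO. It called 4740 for combination against EZH2i, 857 for combination against PRMT5i and 50 for the interaction. The term called 5987, 1533, 6207, 4844, 908 and 69 in the same order.

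Among the 163 genes of the further lists, EZH2i against DMSO called 11. It called 3 with total counts, 6 without the filter, 17 with the replicate block and 17 with the term for replicates 1 and 2 against 3 and 4. It called 0 with only those 2 groups, 36 with DESeq2 and 1 to 73 without 1 library. Over all genes tested, the fits without 1 library called 499 to 4591, the replicate block 1430 and that term 1533. Combination against PRMT5i called 0, and 2 with total counts, 1 with the replicate block, 1 with the term for replicates 1 and 2, 9 with only those 2 groups, 2 with DESeq2 and 0 to 1 without 1 library. The interaction called 0, and 1 with DESeq2 and 0 to 1 without 1 library. The remaining comparisons stayed within 1.5 times, PRMT5i against DMSO at 56 to 85 around 70 without 1 library.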
